A study of Mus musculus with 3 samples.

Results

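The 8 genes described here, Apob, Apoa1, Apoe, Ttr, Afp, Rbp4, Cubn and Amn, encode proteins that the visceral endoderm secretes or uses for uptake. They were chosen by name with earlier results of these libraries known, Apob because the study names it, and all 8 were among the 24421 genes counted. RNA-Seq was performed on rRNA-depleted total RNA from undifferentiated EL 16.7 ES cells, a female mouse line of the background F2:129S1/CastEiJx 129S1. The control library came from cells that received a scrambled shRNA lentivirus, and the NUP153 KD-1 and NUP153 KD-2 libraries came from cells that received shRNA-1 or shRNA-2 against NUP153, a protein of the nuclear pore basket. Each condition had 1 library. All cells, control included, were kept in LIF on γ-irradiated DR4 feeder fibroblasts and were selected with puromycin at 2 μg/ml for 2 days, so feeder RNA could be present in every library. The comparison asked how the level of each gene differed once NUP153 was depleted.

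The visceral endoderm is the epithelium that surrounds the early mouse embryo and descends from the primitive endoderm. Before the placenta and liver function, it takes up maternal nutrients through the receptor complex of cubilin and amnionless, and releases lipoproteins and carrier proteins toward the embryo. ApoB is a structural protein of lipoproteins it exports, and many of the same proteins are later made by the liver.

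Between 69839336 and 85258834 reads fell on genes in each library, with 72344726 in the control. Nup153, the targeted gene, had 27870 reads in the control, 16451 with KD-1, then 11126 with KD-2. Scaled by upper-quartile normalisation, its level was 0.504 times the control (95% counting interval 0.494 to 0.514) in KD-1 while KD-2 had 0.371 times (0.363 to 0.379). Because there was 1 library per condition, no difference below has a replicate check. The intervals are exact conditional binomial intervals of a ratio of read counts and cover counting error only.

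Promoter sequences of the 3 members that differed most between libraries, among the 5 that averaged 10 or more reads, are shown first. They are RefSeq windows of GRCm38.p6 that hold the 250 bases before the annotated start, read 5′ to 3′ on the strand of the gene, with capitals marking a match to a searched motif. The Apob window is chr12:7977427-7977676 (plus strand), the Amn window is chr12:111270846-111271095 (plus strand) and the Cubn window is chr2:13491877-13492126 (minus strand).
Apob: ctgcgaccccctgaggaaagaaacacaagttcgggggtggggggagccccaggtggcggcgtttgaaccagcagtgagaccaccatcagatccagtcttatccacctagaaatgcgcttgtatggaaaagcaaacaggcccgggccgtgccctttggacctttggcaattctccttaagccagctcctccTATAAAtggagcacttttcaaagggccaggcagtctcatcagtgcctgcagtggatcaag
Amn: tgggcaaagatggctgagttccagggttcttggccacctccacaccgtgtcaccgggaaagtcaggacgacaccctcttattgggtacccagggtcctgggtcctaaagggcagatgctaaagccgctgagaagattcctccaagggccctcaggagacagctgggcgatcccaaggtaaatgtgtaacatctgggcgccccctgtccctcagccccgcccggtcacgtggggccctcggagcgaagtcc
Cubn: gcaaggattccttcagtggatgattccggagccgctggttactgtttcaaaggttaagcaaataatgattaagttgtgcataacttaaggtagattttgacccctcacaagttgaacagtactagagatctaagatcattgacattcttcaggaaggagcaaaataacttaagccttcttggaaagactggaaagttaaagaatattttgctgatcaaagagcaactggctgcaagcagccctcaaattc

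The motifs searched on both strands were AGATAA for the GATA family, CAAAGTCCA for HNF4, GTTAAT for part of an HNF1 site, TGTTTAC for the FOXA family, AACAAT for the SOX family and TATAAA for the TATA box. Positions count back from the RefSeq start of each window, which can differ from the GENCODE gene start given below. Apob held TATAAA at -60 to -55 from the start, a motif found in 12.4% of the 32851 promoter windows. Amn and Cubn held none of the 6 motifs in these windows, and neither did Apoa1. Afp held GTTAAT at -105 to -100, which 6.43% of windows hold, and TATAAA at -7 to -2. Rbp4 and Apoe have several annotated starts. Of the Rbp4 windows, one held TATAAA at -28 to -23 and the other held TGTTTAC on the opposite strand at -241 to -235, a motif of 3.17% of windows. Of the Apoe windows, one held TATAAA on both strands and another held GTTAAT on the opposite strand. Windows were searched for 7 of the members, and none was searched for Ttr. AGATAA, CAAAGTCCA and AACAAT, held by 9.99%, 0.384% and 9.42% of windows, were found in none of the member windows searched. The windows also differed in base composition, with a GC content of 55.2% for Apob, 61.2% for Amn and 39.6% for Cubn beside a median of 52.4% over all windows. A match is a description of letters and not a site.

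Levels are given as RPKM, reads scaled to exon length and effective library size, which allows genes of different length to be compared. Apoe stood apart from the other 7 genes. It held 96.7% of the reads on the 8 genes in the control, 96.0% with KD-1, then 96.6% with KD-2, and its control level lay at the 97.3th percentile of all genes. In the control the order was Apoe, Rbp4, Cubn, Amn, Apoa1, Apob, Ttr and Afp. Apoe and Rbp4 were each clear of the next gene by their counting intervals, whereas from Cubn downward the interval of each gene overlapped that of the next. In KD-1, Apob moved to the third place, at 0.290 RPKM (0.260 to 0.323), clear of Cubn at 0.174 (0.152 to 0.199). In KD-2 the third place went to Amn at 0.317 RPKM (0.230 to 0.426), whose interval overlapped that of Cubn at 0.262 (0.232 to 0.293).

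Apob encodes a structural protein of lipoprotein particles, and lies at chr12:7977648-8016835 on the plus strand with 29 merged exon blocks. It had 92 reads in the control, 331 with KD-1, then 146 with KD-2, or 0.0945, 0.290 and 0.139 RPKM. KD-1 was highest and the control lowest. The Apob level in KD-1 was 3.07 times the control (2.43 to 3.91, log2 1.61), and only 126 of the 16670 genes averaging 10 or more reads had a larger log2 fold change. Since Apob was chosen with its result known, this rank is a description and supports nothing further. In KD-2 the ratio was 1.47 (1.13 to 1.93, log2 0.56), just under the 1.5-fold threshold used for calls. With the 4 other scalings tried, Apob passed that threshold in KD-2 as well, with a log2 fold change of up to 0.71. The direct ratio of KD-2 to KD-1 was 0.480 (0.392 to 0.585), so the libraries of the 2 shRNAs differed from each other in Apob by more than counting error.

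Apoe, whose product carries lipids and binds receptors of the LDL receptor family, lies at chr7:19696109-19699188 on the minus strand. It had 12962 reads in the control, 17059 with KD-1, then 17450 with KD-2, or 86.7, 97.4 and 108 RPKM. Its level was 1.12 times the control (1.10 to 1.15) in KD-1 and 1.25 times (1.22 to 1.28) in KD-2. Both ratios exceeded counting error and both were below 1.5-fold. Apoa1, the main protein of high-density lipoprotein, lies at chr9:46228580-46230466 on the plus strand and had 9 reads in the control, 6 with KD-1, then 8 with KD-2. Its ratios were 0.569 (0.167 to 1.79) and 0.825 (0.277 to 2.41), and no difference was detectable at this depth.

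Rbp4 encodes the plasma carrier of retinol and lies at chr19:38116629-38125281 on the minus strand. It had 99, 132 and 109 reads in control, KD-1 and KD-2, or 1.05, 1.20 and 1.08 RPKM. Relative to control, KD-1 had a ratio of 1.14 (0.870 to 1.49) and KD-2 a ratio of 1.02 (0.772 to 1.36), and both intervals included 1. Ttr, which carries thyroid hormone and the retinol carrier, lies at chr18:20665280-20674321 on the plus strand. It had 3 reads in the control and 1 in each knockdown library, too few for a ratio. Afp, the major plasma protein of the fetus, lies at chr5:90490737-90508907 on the plus strand and had 2 reads in the control, 2 with KD-1, then 6 with KD-2. The KD-2 ratio for Afp was 2.79 with an interval of 0.498 to 28.2. The transcripts of these plasma carriers were at or near the floor of 3 reads, apart from Rbp4.

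Cubn encodes cubilin, the large peripheral receptor that binds vitamin B12 with its carrier, albumin and apolipoprotein A-I, and lies at chr2:13276338-13491813 on the minus strand. It had 217 reads in the control, 213 with KD-1, then 294 with KD-2, or 0.208, 0.174 and 0.262 RPKM. KD-1 had 0.838 times the control level (0.690 to 1.02), whereas KD-2 had 1.26 times (1.05 to 1.51). KD-2 was 1.502 times KD-1 (1.25 to 1.80, log2 0.59), at the edge of the threshold. Exons of Cubn share 368 bases with Gm13270 on the opposite strand, a gene absent from the counts, and whether strand was used in counting is not given in the sources used here. Amn encodes amnionless, the membrane partner that anchors cubilin and brings it to the cell surface, and lies at chr12:111271095-111276426 on the plus strand. It had 15 reads in the control, 25 with KD-1, then 44 with KD-2, or 0.116, 0.166 and 0.317 RPKM. The order was control, KD-1, KD-2. The ratio to control was 1.42 (0.721 to 2.90) in KD-1 and 2.72 (1.49 to 5.27, log2 1.41) in KD-2, and KD-2 was 1.91 times KD-1 (1.15 to 3.26).

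Of the 8 genes, 5 (Apoe, Rbp4, Cubn, Amn and Apob) averaged 10 or more reads and entered the counts of genes past 1.5-fold. In KD-1, 1 of the 5 (Apob) was higher and 0 were lower, beside 8.58% of all 16670 genes higher and 5.65% lower. In KD-2, 1 of the 5 (Amn) was higher and 0 were lower, beside 17.0% higher and 10.2% lower. Between the knockdown libraries, Cubn and Amn were higher in KD-2 and Apob was lower, beside 16.2% of genes higher and 13.9% lower. The median log2 fold change of the 5 genes reached 0.18 for KD-1 and 0.33 for KD-2, beside 0.02 and -0.02 over all genes. Both comparisons with control use the same control library. Depth bears on how unusual a fold is. Among genes within 2-fold of the mean reads of Amn, 27.6% were higher past 1.5-fold in KD-2, and 95.2% had a smaller log2 fold change than Amn. For Apob in KD-1 these shares were 11.1% and 99.2%.

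**Figure D1:**
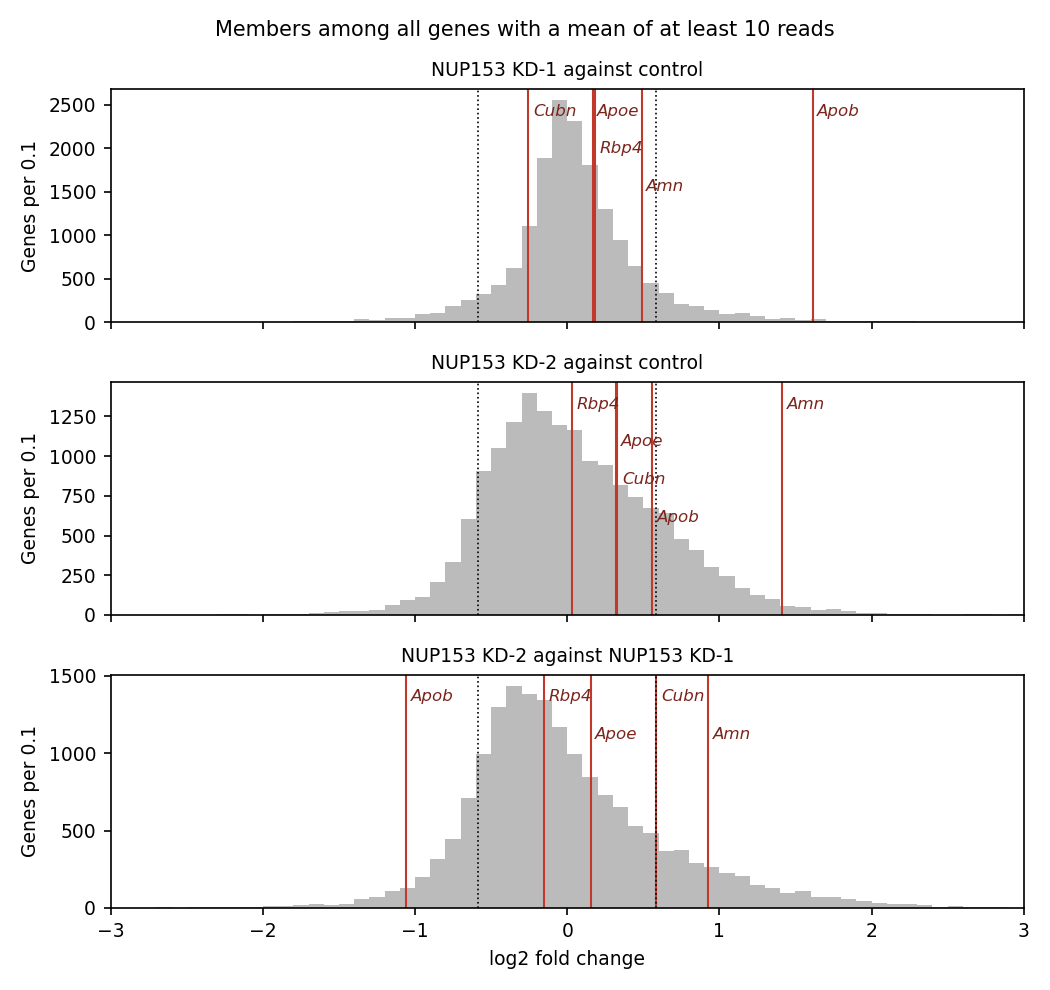
Distribution of log2 fold changes of the 16670 genes averaging 10 or more reads (grey bars, genes per 0.1 log2), with the 5 genes as red lines and 1.5-fold as dotted lines. Apob lies in the upper tail in KD-1 and in the lower tail when KD-2 is compared with KD-1, while Amn lies in the upper tail in KD-2.

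When both knockdown libraries were taken as one group against the control, edgeR's quasi-likelihood test called 4 of 21164 genes (0.0189%) and 0 of the 8 genes described here, at a Benjamini-Hochberg adjusted p under 0.05. An unadjusted value under 0.05 was reached by 293 genes, 1 of them a member, Apob. The DESeq2 Wald test called 2 genes and also 0 members, with 0 members under 0.05 unadjusted. The spread in this test came from the knockdown libraries alone, which left 1 residual degree of freedom, and those libraries differed in Apob. With the filter on low counts, the unadjusted value of Apob in the edgeR test was not under 0.05 either.

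Receptors and adaptors of lipoprotein and vitamin uptake were examined beside Cubn and Amn. Of 12 such genes, all with an average of 10 or more reads, KD-1 had 1 higher past 1.5-fold, KD-2 had 4, and 0 were lower in either, beside 8.58% of all genes higher in KD-1 and 17.0% in KD-2. Lrp2 encodes megalin, the endocytic receptor that works with cubilin. It had 877 reads in the control, 2219 with KD-1, then 1115 with KD-2, and was 2.16 times the control (2.00 to 2.34) in KD-1 and 1.18 times (1.08 to 1.29) in KD-2. Lrp2 thus had its highest level in the same library as Apob, whereas Cubn and Amn had theirs in KD-2. The 4 genes past the threshold in KD-2 were Lrp1 at 1.86 times the control, Tcn2 (a vitamin B12 carrier) at 1.79, Dab2 (the endocytic adaptor of megalin) at 1.55 and Vldlr at 1.53. In the same library 10 of 12 feeder fibroblast markers were higher (median of the 12, log2 0.78), and their part in these 4 values was not tested.

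Of 14 other apolipoprotein genes, 7 averaged 10 or more reads. KD-1 had 1 lower, beside 5.65% of all genes. It was Apoh, with 13, 9 and 15 reads in control, KD-1 and KD-2, and its interval of 0.223 to 1.49 included 1. KD-2 had 1 higher (Clu, at 1.51 times the control), beside 17.0% of all genes. The median log2 fold change of the 7 was 0.36 for KD-1, against 0.09 for KD-2, beside 0.02 and -0.02 over all genes. Among 11 genes of lipoprotein assembly and remodelling, 10 had enough reads. Of these, 0 were higher in either knockdown library, beside 8.58% of all genes for KD-1 and 17.0% for KD-2. KD-1 had 1 lower (Lcat, with 13, 10 and 17 reads), beside 5.65% of all genes. The Lcat interval of 0.258 to 1.62 included 1. With an upper quartile over genes averaging 10 or more reads, KD-1 had 0 lower. Mttp, which loads lipid onto ApoB, was chosen after its values were seen. It had 442, 595 and 544 reads and was 1.15 times the control (1.014 to 1.30) in KD-1, beside 3.07 for Apob.

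Among genes that handle retinol or thyroid hormone, the ligands of Rbp4 and Ttr, Aldh1a2, an enzyme of retinoic acid synthesis, had 25, 61 and 31 reads in control, KD-1 and KD-2. It was 2.08 times the control (1.29 to 3.46) in KD-1. Lrat, which esterifies retinol, had 11, 24 and 9 reads and a KD-1 ratio of 1.86 (0.878 to 4.21), an interval that includes 1. Thra, a thyroid hormone receptor, had 718, 566 and 1465 reads. It was 0.673 times the control (0.602 to 0.752) in KD-1 and 1.89 times (1.73 to 2.07) in KD-2, the directions that the feeder fibroblast markers also took. Among 15 other plasma protein genes of the yolk sac and fetal liver, 6 had enough reads. With upper-quartile scaling Igf2 alone passed the threshold, at 0.624 times the control for KD-1 and 1.99 times for KD-2 (log2 -0.68 and 0.99). Over all genes, 5.65% were lower for KD-1, while KD-2 had 17.0% higher. With library totals, 2 of the 6 were higher for KD-2. The feeder fibroblast markers had log2 medians of -0.63 for KD-1 and 0.78 for KD-2, and their part in the Igf2 values was not tested. Alb, encoding albumin, had 2, 3 and 7 reads, a scarcity like that of Ttr and Afp.

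A list of 13 transcription factors was drawn up for the visceral endoderm, and its fit to that tissue was not tested. Of these 13, 10 had enough reads, and 2 were higher and 2 lower in each knockdown library. The shares over all genes were 8.58% higher and 5.65% lower in KD-1, and 17.0% and 10.2% in KD-2. Hnf4a, a regulator of apolipoprotein genes in liver and yolk sac, had 46, 101 and 71 reads and was 1.87 times the control (1.31 to 2.72) in KD-1 and 1.43 times (0.975 to 2.12) in KD-2. Gata6, a regulator of primitive endoderm, had 46, 63 and 105 reads and was 2.12 times the control (1.49 to 3.07) in KD-2. Zbtb20 was 1.86 times the control in KD-2, and Foxa3 was 0.610 times in KD-1 and 0.545 times in KD-2. The other calls were Nr2f2 (lower) in KD-1, Nr5a2 (lower) in KD-2 and Sox17 (higher) in KD-1. Sox17 had 15 reads in the control against 31, and its interval of 0.924 to 3.52 included 1. Of these, Gata6, Zbtb20 and Nr2f2 had their highest level in KD-2, as the feeder fibroblast markers did (10 of 12 higher), and the part of feeder RNA in their values was not tested. With other scalings, 2 to 4 of the factors were higher and 1 to 2 lower in KD-2.

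**Figure D2:**
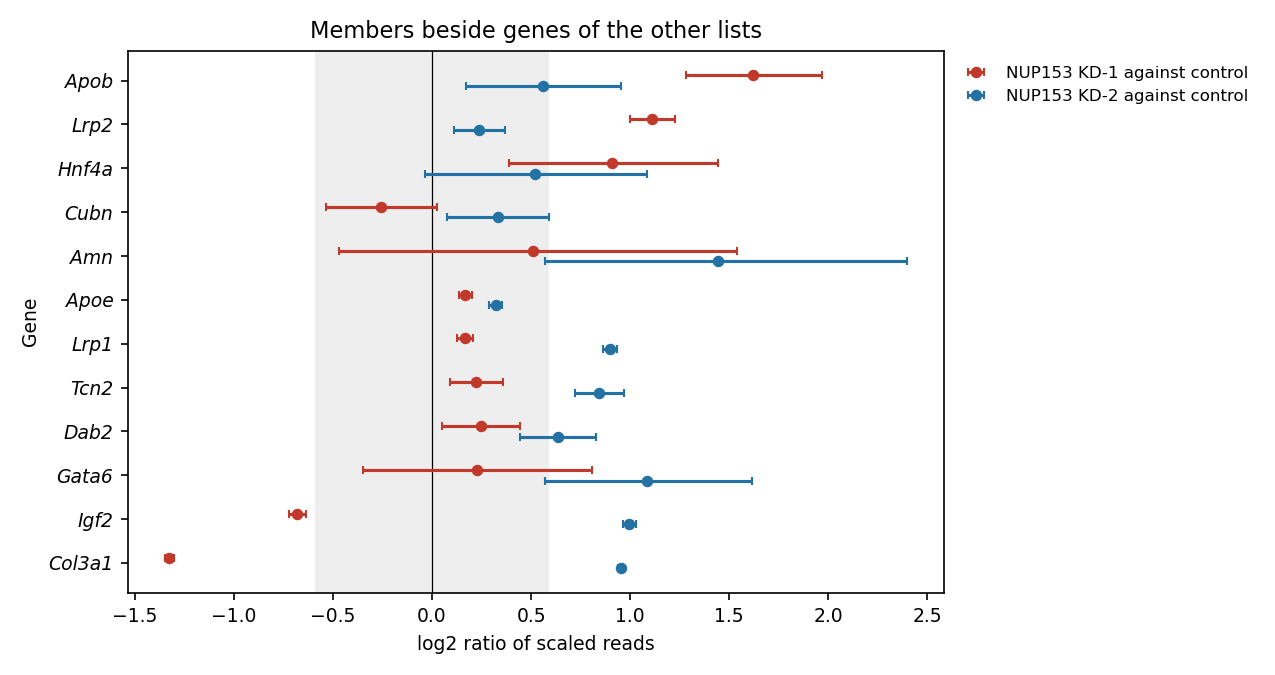
Log2 ratio to control of Apob, Cubn, Amn and Apoe beside 8 genes of the other lists that were chosen after their values were seen, with 95% counting intervals as bars and the range within 1.5-fold shaded. Apob, Lrp2 and Hnf4a have their higher ratio in KD-1, and the other genes have theirs in KD-2.

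The genes whose pair of log2 fold changes lay nearest to that of Apob, among 12739 genes averaging 100 or more reads, were Robo4, 2210409E12Rik, Cdh4, Kank4 and Galnt16, at Euclidean distances of 0.11 to 0.23. Only 8 genes lay within 0.25 of Apob. Around Apoe, the member with the most reads, 1478 genes lay within 0.25, and the nearest were Gstp1, Polrmt, Tmed4, D830031N03Rik and Tcf7l1.

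Cell type markers were measured in the same libraries, as CPM, reads scaled to the effective library size alone and summed over each list. Pluripotent ES cell markers summed to 4896 CPM in the control, 5387 with KD-1, then 3637 with KD-2, and all 10 exceeded 1 RPKM in each library. Visceral endoderm markers summed to 26.1, 41.1 and 28.2 CPM in control, KD-1 and KD-2, of which Lrp2 alone gave 12.5, 27.1 and 14.8 CPM. Spink1 gave 9.37, 7.50 and 8.53 CPM, and 12.9 of the 16.7 RPKM to which the list summed in the control. Sums chosen after the data were seen gave 13.6, 14.0 and 13.4 CPM without Lrp2, and 4.19, 6.50 and 4.88 CPM without both Lrp2 and Spink1. Of these 11 markers, 10 had a read in the control, where Apoa4 was at 0, and Fgb was at 0 in KD-1. Only 6 of them averaged 10 or more reads, of which 3 (Lrp2, Cited1 and Hnf4a) were higher in KD-1, beside 8.58% of all genes. In KD-2, 0 were higher and 1 was lower, beside 17.0% and 10.2% of all genes. The lower gene was Ihh, with 8 reads against 15 and a ratio of 0.495 whose interval of 0.182 to 1.24 included 1. Primitive endoderm markers summed to 480, 526 and 649 CPM. Of these 10, KD-1 had 2 higher past 1.5-fold and KD-2 had 5 (Gata6, Pdgfra, Dab2, Col4a1 and Col4a2), with 0 lower in either, beside 8.58% and 17.0% of all genes higher. Gata6 and Dab2 are also counted in the lists above, and the part of feeder RNA in the KD-2 values was not tested. Hepatocyte markers summed to 1.49, 1.51 and 1.49 CPM, and macrophage markers to 3.73, 4.396 and 4.93 CPM.

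Feeder fibroblast markers differed between the libraries. They summed to 2567 CPM in the control, 1790 with KD-1, then 4396 with KD-2, with none of the 12 at 0. Relative to control, 7 of the 12 were lower past 1.5-fold for shRNA-1, beside 5.65% of all genes. For shRNA-2, 10 were higher, beside 17.0% of all genes. All 12 were higher past 1.5-fold in KD-2 than in the other knockdown library, beside 16.2% of all genes. The libraries ranked by feeder markers as KD-2, control, KD-1, and Cubn had the same order. Amn and Apoe were likewise highest in KD-2 but lowest in the control, and Apob was highest in KD-1, where the feeder markers were lowest. The part of the feeder RNA in the values of Amn, Cubn, Apoe and Thra was not tested. In bulk RNA, more cells of a type and more RNA per cell cannot be told apart.

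**Figure D3:**
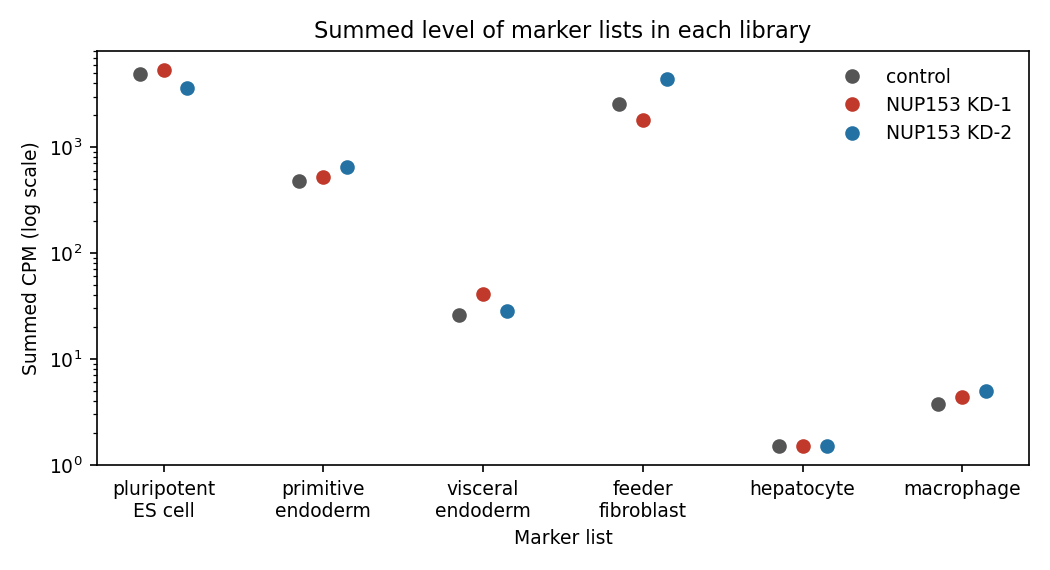
Summed CPM of each marker list in the 3 libraries, on a log axis, with 1 point per library. Feeder fibroblast markers run from 1790 CPM in KD-1 to 4396 CPM in KD-2, and visceral endoderm markers from 26.1 CPM in the control to 41.1 CPM in KD-1, of which Lrp2 alone gives 12.5 and 27.1 CPM.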

How the data were processed

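RNA-Seq of 3 libraries was analysed, 1 per condition. The authors trimmed reads with Trim Galore 0.4.1, aligned them to mm10 (GRCm38) with TopHat2 2.1.1 and deposited raw counts per gene in tables with the summary lines of HTSeq. The methods name another counter, and whether counting used strand is not given in the sources used here. Lines that name no gene held 23.0% to 25.6% of reads and were left out. The deposited counts had 0 spike-in lines, so the dispersion the study took from spike-ins could not be used.

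Counts were scaled by upper-quartile normalisation in edgeR 4.0.16 (R 4.3.3). Fold changes used a pseudocount of 0.5 reads, and a call was a fold change above 1.5 among genes averaging 10 or more reads, without a test. Ratio intervals are exact conditional binomial (Clopper-Pearson) and level intervals exact Poisson, both at 95% (scipy 1.17.1). RPKM used merged exon lengths of GENCODE annotation, to which 24046 genes were matched. Both knockdown libraries were tested together by the quasi-likelihood test of edgeR with TMM scaling, with DESeq2 1.42.0 as an alternative. Scripts were tested on simulated data. All 8 members were named. From the other lists, genes past 1.5-fold were named, in the first place up to 4 per list by largest change, and further genes were named after their values were seen. The members, lists and motifs were chosen with earlier results of these data known. The counts over the list of retinol and thyroid hormone genes, and 1 item of it, are not reported here.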

Additional observations from a re-analysis of the deposited data

How the results depend on the processing

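Counts of members past the threshold rest on few reads. The likelihood ratio tests at an assumed dispersion ran over 21164 genes without the filter. They used edgeR's default prior count and required an adjusted p under 0.05 beside the fold. Only the step from 0.01 to 0.04, not that from the main counts, shows the dispersion alone. In KD-1, the 1 higher member (Apob) became 0 under that test at 0.04, and lower members went from 0 to 2 (Apoa1 and Ttr) without the filter on low counts. In KD-2, the 1 higher member became 2 with TMM, DESeq2 size factors, library totals or no filter, and also with an upper quartile over genes averaging 10 or more reads, an alternative chosen after seeing the data. It became 0 with a mean of at least 100 reads or under the test at 0.04. Lower members in KD-2 went from 0 to 1 (Ttr) without the filter. Between the knockdown libraries, the 2 members higher in KD-2 became 1 with a mean of at least 100 reads or a pseudocount of 5 reads, 3 (with Afp) without the filter, and 0 at 2-fold or under the test at 0.01 or 0.04. The 1 lower member (Apob) became 0 under the test at 0.04.

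Of 100 recomputed fold changes of members, 91 stayed within their counting interval, 9 (all of Apoe) did not, and 1 changed sign. That was Rbp4 in KD-2 against KD-1, from -0.15 to 0.01 on the log2 scale with library totals, and its interval included no change. Over all genes, 1430 higher and 942 lower calls in KD-1 became 439 and 413 under the likelihood ratio test at 0.01, 47 and 23 at 0.04, 3203 and 2118 without the filter, 479 and 550 at a mean of at least 100 reads, and 506 and 256 at 2-fold. In KD-2, 2841 and 1701 became 3942 and 819 with library totals, which moved the median of all genes by 0.16 on the log2 scale, 898 and 310 at 2-fold, 4533 and 2990 without the filter, 1745 and 1107 at an average of 100 or more reads, and 55 and 6 under the test at 0.04. For KD-2 against KD-1, 2698 and 2318 became 3183 and 1553 with DESeq2 size factors and 3536 and 1221 with library totals, 4137 and 4008 without the filter, 1930 and 1389 at an average of 100 or more reads, 1320 and 522 at 2-fold, and 573 and 81 under the test at 0.04. In the test of both knockdown libraries, the 4 genes called by edgeR became 2 with upper-quartile scaling, 2 with DESeq2 size factors and 1 with the filter on low counts. Leaving out a knockdown library leaves no residual degree of freedom, so the single-library ratios stand without a test. No paired analysis was possible because each condition had 1 library. Members with under 10 reads (Apoa1, Ttr and Afp) are limited by depth.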
